A study of Mus musculus with 15 samples.

Results

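H3K27ac peaks without a FAIRE peak are stretches of acetylated chromatin at which no open site was called. They were chosen by position alone, as the peaks of the merged H3K27ac list that share no base with any of the 56970 peaks of the merged FAIRE list. Of 90682 H3K27ac peaks, 50467 met this rule (55.7%), and 40215 overlapped a FAIRE peak by at least 1 bp. The sources used here do not say which conditions were merged to call either list, so the lists may rest on conditions beyond the samples described. The cells were NIH3T3, an established mouse fibroblast line, either left untreated or irradiated with UV-C (254 nm, 80 J/m2) and sampled 6 h later in fresh medium with DMSO. H3K27ac ChIP-seq and FAIRE-seq had 2 samples per condition with 1 input DNA sample, and RNA-seq had 3 libraries per condition with 14211528 to 22032701 counts each. The chromatin tables hold 1 pool per condition, so no spread between samples can be given and no test was made on chromatin. The labels do not say whether untreated cells were washed, re-fed or given DMSO, nor whether RNA libraries came from separate cultures, so the p-values for RNA cover the spread among these libraries, which may be technical.

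Acetylation of lysine 27 of histone H3 is laid down mainly by the acetyltransferases p300 and CBP and marks active promoters and enhancers. FAIRE recovers DNA that is poorly crosslinked to protein, which enriches the nucleosome-depleted core of such elements, whereas the acetylated nucleosomes flank that core. An acetylated peak without a FAIRE peak can therefore be a flank of an open element, or lie far from any called one.

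The peak lists are in mm9 coordinates, for which no genome was used here, so no sequence is shown for the peaks. Shown instead are promoters of a class described further on, those whose window carried H3K27ac but no FAIRE signal. Whether these windows held a peak without FAIRE was not checked. The 4 promoters shown were picked, after their values were seen, to span what these genes did: Ptn lost promoter acetylation, Tnfrsf1b RNA fell, Syne2 RNA rose, and Zfp651 was among the most acetylated. Each runs 5′ to 3′ from 250 bases before to 50 after the RefSeq start in GRCm38.p6, with each CG dinucleotide in capitals.
Ptn: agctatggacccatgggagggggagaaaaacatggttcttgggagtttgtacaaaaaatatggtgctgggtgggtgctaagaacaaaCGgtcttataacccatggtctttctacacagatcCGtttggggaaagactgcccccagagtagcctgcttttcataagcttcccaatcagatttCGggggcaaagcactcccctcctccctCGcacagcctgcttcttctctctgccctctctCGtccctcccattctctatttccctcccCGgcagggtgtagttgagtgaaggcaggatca
Tnfrsf1b: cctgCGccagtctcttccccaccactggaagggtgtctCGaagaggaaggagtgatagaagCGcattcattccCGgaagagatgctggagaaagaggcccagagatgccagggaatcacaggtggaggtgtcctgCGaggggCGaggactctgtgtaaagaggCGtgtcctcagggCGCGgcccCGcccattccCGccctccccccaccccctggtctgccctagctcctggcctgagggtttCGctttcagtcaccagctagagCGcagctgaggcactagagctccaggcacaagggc
Syne2: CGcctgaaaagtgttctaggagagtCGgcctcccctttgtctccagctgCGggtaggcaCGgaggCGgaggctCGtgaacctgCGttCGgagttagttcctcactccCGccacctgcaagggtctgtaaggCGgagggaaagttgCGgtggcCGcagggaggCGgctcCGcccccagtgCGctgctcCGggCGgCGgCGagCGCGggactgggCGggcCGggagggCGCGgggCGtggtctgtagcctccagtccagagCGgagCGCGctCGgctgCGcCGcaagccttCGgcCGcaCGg
Zfp651: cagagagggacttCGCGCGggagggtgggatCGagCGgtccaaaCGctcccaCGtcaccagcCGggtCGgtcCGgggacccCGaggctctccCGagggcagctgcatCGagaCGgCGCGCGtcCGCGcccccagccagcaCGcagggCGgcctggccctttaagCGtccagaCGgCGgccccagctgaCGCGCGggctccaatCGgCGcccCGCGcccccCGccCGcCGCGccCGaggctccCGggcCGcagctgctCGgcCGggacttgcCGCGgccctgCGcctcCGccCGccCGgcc
The motif searched was CG, which reads the same on both strands, and it occurred 6 times in the Ptn promoter, 13 times in that of Tnfrsf1b, 35 times in that of Syne2 and 46 times in that of Zfp651. The 4 promoters thus differed widely in CG number. Among all 32851 RefSeq promoters of this length, 94.6% held at least 1 CG and the median number was 7 (quartiles 3 and 20), so Ptn was near the median and Syne2 and Zfp651 were above the upper quartile. Where the 1000 bp windows of the promoter tables lie relative to the start is not given in the sources used here, so the printed bases may not be the stretch that was measured. Names matched the sequence table for 70.0% of the promoters of this class and 75.8% of all windows. Both are below the 80% set as the minimum match, so base composition was not compared with that of other promoters.

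The peaks without a FAIRE peak were short and weakly acetylated. Their median length was 272 bp, against 809 bp for peaks with a FAIRE peak, and 31.3% were under 200 bp, against 4.30%. The median untreated log2 enrichment over input was 0.74 (quartiles 0.32 and 1.41), against 2.43 (1.38 and 3.44) in peaks with a FAIRE peak. In reads, the median peak without FAIRE held 22 untreated, 22 irradiated and 9 input reads, against 178, 177 and 27. The authors' peak score had a median of 7.13 against 48.7. All 5 measures were thus lower at the median peak without FAIRE, although length, reads and score are not independent of each other. Nor are they independent of the rule, since a longer peak is likelier to share 1 bp with a FAIRE peak. In each length class the median untreated enrichment was lower without FAIRE, for example 1.31 against 2.06 from 400 to 800 bp and 3.49 against 3.74 above 1600 bp.

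A minority of the group was as strongly acetylated as the open peaks. An untreated enrichment of at least 3 was reached by 2269 peaks (4.50%), against 36.0% of peaks with a FAIRE peak, and 1921 (3.81%) were longer than 1000 bp, against 37.6%. The group made up 34.0% of the summed length of H3K27ac peaks but 18.2% of the untreated and 16.7% of the irradiated peak reads. Its summed reads were 2822234 untreated and 2981201 irradiated, and its read density was 154 untreated and 163 irradiated reads per kb, against 357 and 418 in peaks with a FAIRE peak. The group therefore holds most of the peaks and a small part of the acetylation signal. By chromosome its share of all H3K27ac peaks ran from 51.5% on chromosome 11 to 61.9% on chromosome X, and on chromosome Y it was 17 of 35 peaks (48.6%).

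**Figure D1:**
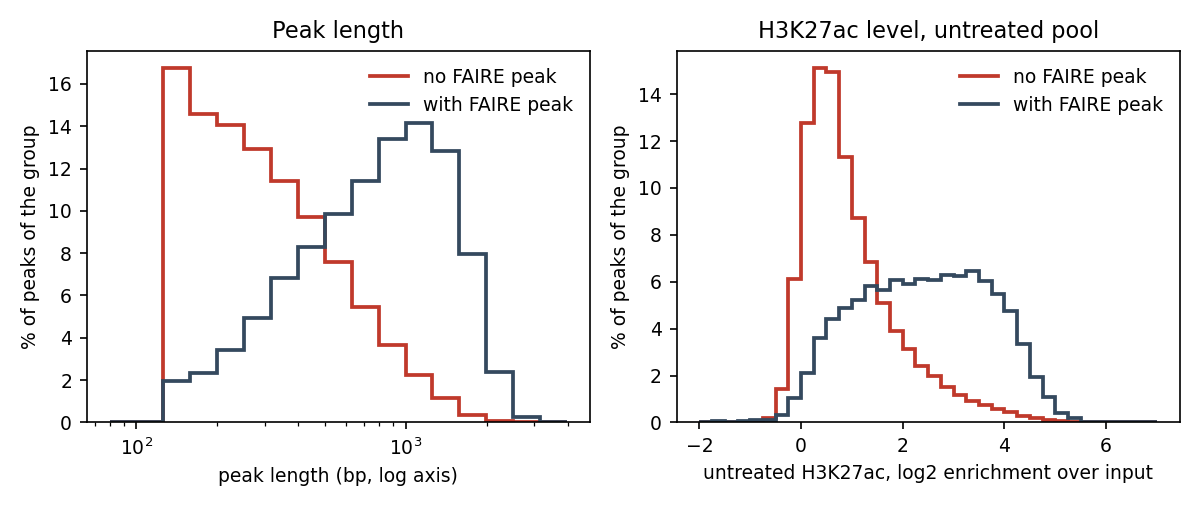
Distribution of peak length (left, log axis) and untreated H3K27ac enrichment (right, log2 over input) as percent of the 50467 peaks without a FAIRE peak (red) and of the 40215 with one (dark blue). The red curves peak at short lengths and low enrichment, with medians of 272 bp and 0.74, and overlap the dark ones widely.

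The 4 peaks with the highest untreated enrichment show what strong acetylation without a FAIRE peak looks like. The highest, chr1:165241248-165243053, held 4098 untreated and 2947 irradiated reads over 71 input reads, an untreated enrichment of 5.96, and its nearest FAIRE peak was 545 bp away. At chr15:97661032-97662700 there were 2177 and 1205 reads over 38 in the input, with a FAIRE peak 1 bp away. At chr5:143577800-143579175 there were 2577 and 1899 reads over 50, with a FAIRE peak 139 bp away. At chr8:111227599-111229045 there were 1410 and 726 reads over 21, with a FAIRE peak 1335 bp away. All 4 were lower after irradiation, with irradiated-to-untreated read ratios from 0.511 (95% interval 0.466 to 0.559) on chromosome 8 to 0.731 (0.688 to 0.776) on chromosome 5. They were chosen for high untreated values, which favours a lower irradiated one. Over all 483 members with a mean enrichment of at least 4 the median difference was 0.23, with 16.4% gaining and 6.42% losing.

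Typical members rest on few reads. The 4 peaks nearest the median enrichment each held 19 untreated and 7 input reads, and 9, 25, 32 and 36 irradiated reads. The depth-scaled read ratio of 22 against 22 reads has a counting interval of 0.524 to 1.88, against 0.801 to 1.23 for 178 against 178 reads. A change of less than about that size was not detectable in a single median member.

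High input marked a small subset. Of the group, 14 peaks held at least 100 input reads, and 10 of these lay on chromosome 11 between chr11:3034394-3034589 and chr11:3086839-3086970. At chr11:3077856-3078242, for example, there were 115 untreated and 119 irradiated reads against 369 in the input, an enrichment of −1.08. In these 10 peaks the untreated enrichment was between −1.47 and 0.59, and 8 of them lay below the scaled input.

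The border set by the rule was not a border in acetylation. The 832 peaks whose gap to a FAIRE peak was at most 10 bp had a median untreated enrichment of 1.15, and the 825 peaks that overlapped a FAIRE peak by at most 10 bp had 1.32. Just outside, chr1:88926674-88927242 abutted a FAIRE peak with 72 untreated and 64 irradiated reads. Just inside, chr1:74004222-74004894 overlapped one by 1 bp with 150 and 232 reads.

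The group was spread over a wide range of distances from open chromatin. The median gap to the nearest FAIRE peak was 3212 bp, 38.9% of the peaks lay within 1000 bp of one and 28.7% lay beyond 10 kb. Of the group, 26.2% lay within 500 bp of an H3K27ac peak that does have a FAIRE peak. Acetylation was lower with distance: the median untreated enrichment was 1.14 in the 14539 peaks within 500 bp of a FAIRE peak, 1.01 in the 8548 from there to 2 kb, 0.62 in the 12880 at 2 to 10 kb, 0.47 in the 12598 at 10 to 50 kb and 0.43 in the 1902 beyond 50 kb. The median length, between 249 and 306 bp in all 5 classes, followed no such order.

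Many members lay beside each other. Joined over gaps of up to 3000 bp with no FAIRE peak between them, the 50467 peaks formed 36530 runs, of which 10296 held at least 2 peaks and together 48.0% of the group. The run with the most untreated reads, chr1:165238011-165243053, joined 4 peaks with 7412 untreated and 5533 irradiated reads, a ratio of 0.740 (0.715 to 0.767). The run at chr7:77501096-77505979 joined 6 peaks, with 4242 reads before and 2164 after irradiation (ratio 0.506, 0.480 to 0.533), and its peaks differed from −2.16 to 0.07, so the summed ratio does not describe each of them. The runs were chosen by untreated reads, which favours ratios below 1. The 3 peaks at chr2:125861165-125865303 held 3593 and 3557 reads (0.982, 0.937 to 1.03). Among the 2767 runs of at least 3 peaks, every peak was higher after UV in 846 and every peak was lower in 825, together 60.4%. Runs of peaks with a FAIRE peak were not counted, so this share cannot be called particular to the group.

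After UV, H3K27ac was higher at some of these peaks and lower at nearly as many. The median difference was 0.00 (quartiles −0.48 and 0.51), against 0.06 (−0.50 and 0.60) in peaks with a FAIRE peak. A gain of at least 1 was seen at 5606 peaks of the group (11.1%), against 12.1% of all H3K27ac peaks, and a loss of at least 1 at 4663 (9.24%), against 9.84% of all. Both shares were near those over all peaks. The counts depend on the 16 reads added before the log and on the threshold: with 1 read added they were 11978 and 10828, and with a threshold of 0.58 they were 11244 and 10565.

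At like levels of acetylation, gains were higher in share without FAIRE than with it in every class, whereas losses were so only from a mean enrichment of 2. The classes were not matched for length or reads, both lower at the median peak without FAIRE. The part of counting error in these shares was not tested. From 0.5 to 1, gains were 11.5% against 9.70% and losses 8.77% against 9.98%. From 1 to 2 they were 16.6% against 14.1% and 15.7% against 15.7%. Among peaks with a mean enrichment from 2 to 3, gains were 18.4% and losses 17.1% without a FAIRE peak, against 15.2% and 14.9% with one. From 3 to 4 they were 17.3% and 11.5%, against 13.0% and 7.53%. At 4 and above, gains were 16.4% against 15.5% and losses 6.42% against 1.68%. Below 0.5 both groups had few: gains were 4.16% against 3.87% and losses 2.78% against 3.52%. Peaks of this lowest class made up 32.7% of the peaks without FAIRE and 5.65% of the others.

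Some peaks crossed the whole range. An enrichment of at most 0.5 before and at least 2 after UV was seen at 514 peaks (1.02%), against 0.837% of all H3K27ac peaks. The reverse, from at least 2 to at most 0.5, was seen at 344 (0.682%), against 0.561% of all. In peaks with a FAIRE peak these shares were 0.609% and 0.410%. All these shares are of whole groups, not of the peaks that began low or high enough to cross. The lower quartile of untreated enrichment was 0.32 without FAIRE and 1.38 with it, and 13.5% against 60.4% began at 2 or more. More peaks without FAIRE could thus cross upwards and fewer downwards. Shares among peaks able to cross were not computed, so the groups cannot be ranked by them.

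The largest gains and losses differed in where they lay. At chr10:61051635-61052891 reads went from 47 to 918 over 25 in the input (ratio 19.4, 14.4 to 26.5), 12267 bp from a FAIRE peak. At chr4:11109937-11111311 they went from 34 to 724 (21.1, 15 to 30.7), 7078 bp away, and at chr10:90881248-90882362 from 9 to 316 (34.8, 18.1 to 76.8), 12256 bp away. At chr19:44327823-44328779 they went from 52 to 832 (15.9, 12 to 21.4), 4508 bp away. In untreated cells the log2 enrichment of these 4 peaks was 0.90, 0.60, −0.73 and 0.29, in this order.

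The 4 largest losses all lay within 117 bp of a FAIRE peak. Over all losing peaks, 39.9% lay within 500 bp of one and 15.1% beyond 10 kb. Over all gaining peaks these shares were 29.1% and 30.3%, near the 27.5% and 30.1% of peaks that neither gained nor lost. Gaining peaks as a whole thus did not lie far from FAIRE peaks more often than unchanged ones. At chr2:131530702-131532111 reads went from 1247 to 83 over 62 in the input (ratio 0.0660, 0.0522 to 0.0825), 30 bp from a FAIRE peak whose own FAIRE enrichment went from 2.74 to −0.02. At chr6:50906619-50907486 they went from 594 to 44 and at chr13:70875519-70876149 from 388 to 25, with FAIRE peaks 28 and 33 bp away that went from 1.42 to 0.50 and from 2.15 to −0.04. At chr5:110992345-110993073 they went from 372 to 25, with a FAIRE peak 117 bp away that went from 0.94 to 0.01. After irradiation the H3K27ac enrichment of these 4 peaks was 0.73, 0.39, 0.38 and 0.01, and the FAIRE values beside them were lower too.

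**Figure D2:**
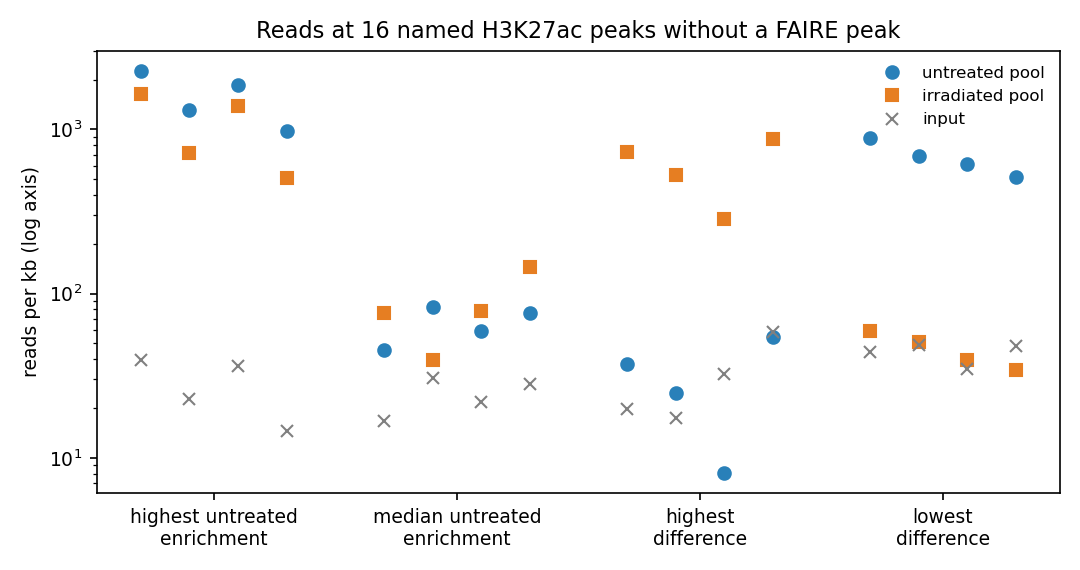
Reads per kb (log axis) in the untreated pool (blue circles), the irradiated pool (orange squares) and the input (grey crosses) at 16 peaks without a FAIRE peak, 4 in each set. The pools are 1 value per condition with no replicate error, and input reads are not scaled. The 4 highest differences start at an enrichment between −0.73 and 0.90, and the 4 lowest end between 0.01 and 0.73.

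Over the whole group, losses were fewer with distance from open chromatin. Of peaks within 500 bp of a FAIRE peak, 12.8% lost H3K27ac, then 11.9%, 8.39%, 5.25% and 2.31% in the classes farther away. Gains stayed between 10.2% and 11.2% up to 50 kb and were 17.1% beyond. Since levels were also lower with distance, the classes were compared again among peaks with a mean enrichment of at least 2. There losses were 15.4%, 14.9%, 16.8%, 8.88% and 4.65%, so the lower share was seen only beyond 10 kb, and gains were 18.2%, 18.7%, 17.3%, 15.7% and 12.8%. Among the upper 50% by mean enrichment, by contrast, gains were 14.4%, 13.5%, 17.2%, 20.4% and 24.7%, and losses were 16.2%, 15.4%, 14.3%, 10.2% and 4.37%. The classes beyond 50 kb held 86 and 687 peaks in these 2 comparisons. The order of gains with distance therefore depended on the level required, whereas losses were fewest beyond 50 kb in all 3 comparisons.

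**Figure D3:**
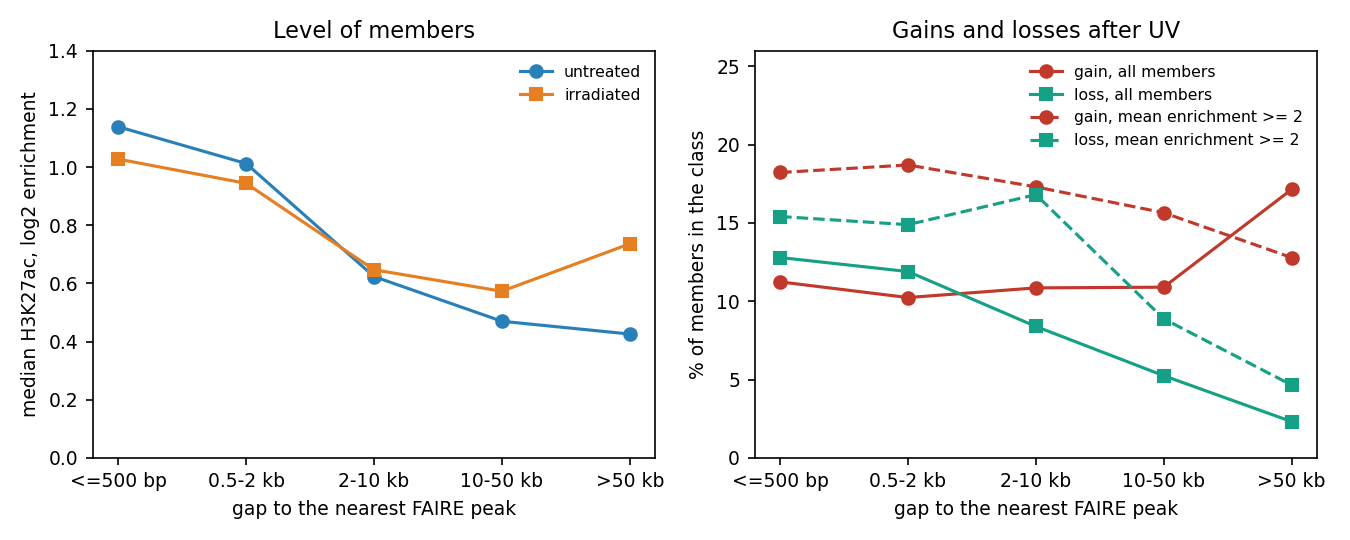
Median H3K27ac enrichment before and after UV (left) and percent of peaks that gained or lost at least 1 on the log2 scale (right), by gap to the nearest FAIRE peak. Losses decline from 12.8% to 2.31% over all peaks (solid), and from 15.4% to 4.65% with mean enrichment of at least 2 (dashed), and gains beyond 50 kb are 17.1% and 12.8%.

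The change at a peak resembled that of the nearest acetylated open peak when that was close. Pearson's r of the differences across peaks was 0.76 within 500 bp (n = 13222), then 0.65, 0.39, 0.23 and 0.11 beyond 50 kb (n = 3824). The share with the same sign went from 76.1% to 53.5%. These are descriptions, since neighbouring peaks share the same libraries and several members can share 1 neighbour.

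On the deposited scale, FAIRE was lower at most open sites after UV, with smaller differences beside peaks that gained acetylation. Over all 56970 FAIRE peaks the median FAIRE enrichment was 0.80 untreated and 0.48 irradiated, and 80.0% were lower. Beside the 2467 peaks that lost H3K27ac and lay within 1 kb of a FAIRE peak, the median FAIRE enrichment went from 1.19 to 0.32, a median difference of −0.87. Beside the 2109 that gained, it went from 0.69 to 0.76, a median difference of 0.00, and beside the other 15047 the median difference was −0.37. The medians rose from bin to bin of the H3K27ac difference: the median FAIRE difference was −1.34 beside peaks that lost at least 2 and 0.28 beside those that gained at least 2. Across the 19623 peaks within 1 kb, which share 15626 FAIRE peaks, r was 0.56, and across the 14500 beyond 10 kb it was 0.14. The FAIRE differences use 1 input scale, 0.657, for both pools. At promoter windows the scale was 0.657 untreated and 0.528 irradiated. With each pool's own scale the median over all FAIRE peaks was −0.27 and 76.0% were lower. The medians beside losing and gaining peaks were then −0.79 and 0.07. The own scale changes the input term only, so it need not remove all of a difference in pool depth. How much of the lower FAIRE came from depth was not tested.

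**Figure D4:**
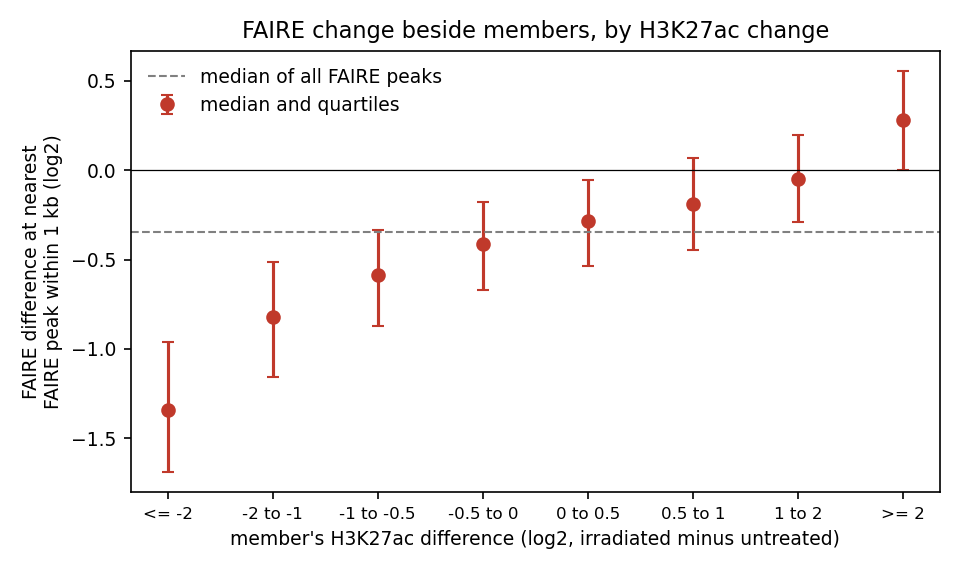
FAIRE difference at the nearest FAIRE peak within 1 kb (log2, irradiated minus untreated) for bins of the H3K27ac difference of peaks without a FAIRE peak; points are medians and bars run between the quartiles over peaks. The medians run from −1.34 to 0.28, and the dashed line is the median of all FAIRE peaks, which was −0.35. All values use 1 input scale for both pools.

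Genes were reached through promoter windows, a separate set of features. Whether a window held a peak without FAIRE was not checked, so results for windows and their genes need not hold for those peaks. The promoter tables hold reads in 21881 windows of 1000 bp. A window was counted as acetylated without FAIRE signal if its H3K27ac enrichment was at least 1 in a pool and its FAIRE enrichment was at most 0.32 in both, the 95th percentile of windows without acetylation. This held for 680 windows, against 10290 that were acetylated with FAIRE signal. Marker genes were used to check the label of the cells. Of 35 fibroblast matrix genes 31 were acetylated with FAIRE signal, against 47.0% of all windows. This held for 1 of 17 neuronal, 2 of 17 blood and immune, and 1 of 18 liver and epithelial marker windows. In these 3 lists 15, 15 and 17 windows were not acetylated.

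Losses of H3K27ac outnumbered gains in the 680 windows. Of these, 121 (17.8%) lost at least 1, against 3.43% of all windows and 5.31% of acetylated windows with FAIRE signal, and 37 (5.44%) gained, against 2.38% of all and 4.42% of those with FAIRE signal. The median H3K27ac enrichment was 1.70 untreated and 1.41 irradiated. In 39.1% of all windows neither pool was above the input, so the acetylated windows with FAIRE signal are the closer comparison, although their level was higher, at 3.16 and 3.17. A window could enter the class through 1 pool alone, and the same values give its gain or loss. The rule thus favours gains and losses in windows near the limit of 1, which were more typical of this class. How much of these shares came from the rule was not tested.

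The most acetylated windows of this class were those of H1f0, which encodes the linker histone H1.0, with 1150 untreated and 1127 irradiated reads, Zfp651 with 637 and 482, Furin, which encodes a proprotein-cleaving protease, with 630 and 668, and Myst4, an acetyltransferase gene, with 534 and 245. RNA of H1f0 (log2 fold change −1.10 ± 0.20 SE, adjusted p = 0.000754 in edgeR) and of Zfp651 (−1.03 ± 0.17 SE, adjusted p = 0.000339 in edgeR) was lower after UV, and that of Furin did not pass (adjusted p = 0.876 in edgeR). The largest losses were at Aqp5, a water channel gene (145 to 12 reads), Psd3 (160 to 19), Adra1d, an adrenergic receptor gene (152 to 18), and Krt7, a keratin gene (82 to 8). RNA of these 4 genes did not pass the test, with adjusted p between 0.161 and 0.997 in edgeR's quasi-likelihood test. The largest gains were at the microRNA genes Mir106b (56 to 463) and Mir93 (71 to 528), at Snord89, a small nucleolar RNA gene (63 to 469), and at Psapl1 (17 to 151). Mir106b and Mir93 are neighbours in 1 cluster, so their windows can share reads.

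RNA of some genes of this class changed after UV, in both directions. Of 513 genes tested, RNA was higher after UV for 28 (5.46%) and lower for 58 (11.3%) by edgeR with Benjamini-Hochberg adjustment over all genes (threshold 0.05), against 7.7% and 12.4% of all 14925 genes tested. In the class with FAIRE signal the shares were 10.9% and 18.5% of 9252 genes. The difference between the classes was not tested, and the counts moved with single libraries. Without untreated replicate 1, 51 were higher and 46 lower, and without untreated replicate 2, 49 and 32, so that the excess of lower calls turned around. Without irradiated replicate 1 the counts were 39 and 90, and without irradiated replicate 3 they were 14 and 35. With library totals in place of TMM scaling the counts were 20 and 116, and the median over all genes moved from −0.01 to −0.24.

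RNA calls were counted among genes whose promoter acetylation differed, against 7.7% higher and 12.4% lower of all tested genes. Of the 93 tested genes whose window lost H3K27ac, RNA of 3 was higher and of 8 lower, and of the 18 whose window gained, 2 were higher and none lower. The other 402 held 23 higher and 50 lower. These counts are too small to compare with those of other genes. Ptn, which encodes the growth factor pleiotrophin, is an example: its window went from 201 to 43 H3K27ac reads over 48 in the input, while its RNA was 448, 852 and 661 CPM untreated and 643, 821 and 1048 CPM irradiated (log2 fold change 0.36 ± 0.25 SE, adjusted p = 0.408 in edgeR). The 2 groups of RNA libraries overlapped.

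Among the genes whose RNA rose, 1810011O10Rik led, with 1.61, 1.14 and 1.15 CPM untreated and 74.3, 35.8 and 46.7 irradiated (log2 fold change 5.34 ± 0.29 SE, adjusted p = 3.67e-09 in edgeR). Its window gained H3K27ac, from 50 to 132 reads, with FAIRE at 0.21 and 0.13. Lepr, the leptin receptor gene, went from 9.90, 8.74 and 13.3 to 43.6, 27.1 and 32.6 CPM (1.69 ± 0.21, adjusted p = 2.15e-05 in edgeR), while its window went from 77 to 42 reads. Syne2, which encodes the nuclear envelope protein nesprin-2, went from 94.8, 57.9 and 70.6 to 241, 140 and 166 CPM (1.29 ± 0.24, adjusted p = 0.000763 in edgeR), with 201 and 241 H3K27ac reads. In all 3 genes every irradiated library was above every untreated one, which held for 33.9% of all tested genes in either direction. RNA also rose for Ndufa1, a respiratory complex I subunit gene (log2 fold change 1.09), the forkhead factor gene Foxl1 (1.07), the H3K27 demethylase gene Kdm6b (0.94), the cholesterol esterification gene Soat2 (0.91) and Dqx1 (0.88). Kdm6b did not pass without irradiated replicate 1 (0.46, adjusted p = 0.0598) or untreated replicate 2 (0.97, adjusted p = 0.0631), and Kdm6b, Soat2 and Dqx1 did not pass with library totals (adjusted p = 0.0761, 0.138 and 0.0675, edgeR).

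RNA fell most for Tnfrsf1b, which encodes TNF receptor 2, from 37.6, 40.4 and 34.9 to 7.74, 7.14 and 7.47 CPM (log2 fold change −2.33 ± 0.18 SE, adjusted p = 1.13e-07 in edgeR). Its window held 123 and 99 H3K27ac reads, a difference of −0.28. Ak4, a mitochondrial adenylate kinase gene, went from 36.2, 28.3 and 25.5 to 8.05, 6.20 and 6.02 CPM (−2.15 ± 0.20, adjusted p = 1.1e-06 in edgeR), with 137 and 190 H3K27ac reads. Sgk1, which encodes a serum- and glucocorticoid-induced kinase, went from 656, 585 and 493 to 255, 143 and 211 CPM (−1.51 ± 0.24, adjusted p = 0.000183 in edgeR), and its window went from 323 to 145 reads. The libraries of the groups did not overlap for these 3 genes, and only in Sgk1 among them did acetylation differ by at least 1. RNA also fell for Lzts2 (−1.81), the de novo DNA methyltransferase gene Dnmt3b (−1.44), Kctd15 (−1.38) and E130309D02Rik (−1.33). The Kctd15 window went from 398 to 167 H3K27ac reads.

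**Figure D5:**
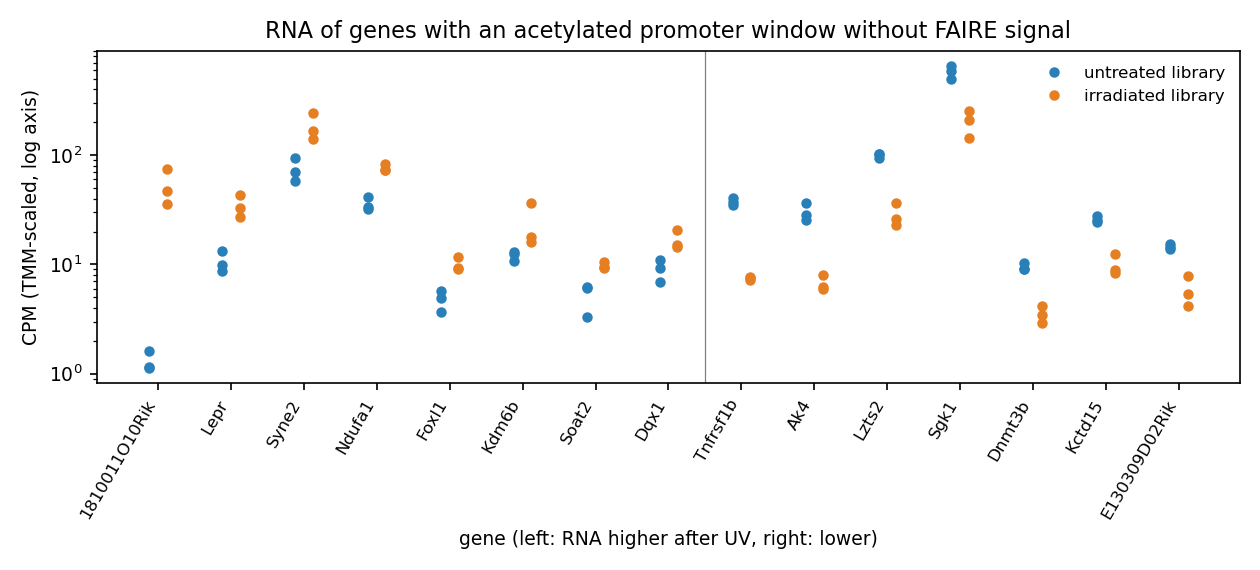
RNA level in CPM (TMM-scaled, log axis) of each of the 3 untreated (blue) and 3 irradiated (orange) libraries for the 8 genes with the highest log2 fold change and 7 of the 8 with the lowest among called genes of acetylated promoter windows without FAIRE signal. The groups do not overlap in any of the 15 genes, which the choice of genes required; 1810011O10Rik goes from at most 1.61 to at least 35.8 CPM.

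The genes of the class with the most untreated reads, by CPM, which is not corrected for gene length, mostly did not pass the test for RNA. Hnrnpf, a splicing factor gene, had 1118 ± 152 CPM untreated and 1164 ± 167 irradiated (SD, n = 3 per group) while its window went from 280 to 104 H3K27ac reads. Timp3, which encodes an inhibitor of matrix metalloproteinases, had 944 ± 152 and 996 ± 121 CPM, with 328 and 199 reads. The log2 fold changes were 0.06 and 0.08 (adjusted p = 0.952 and 0.934 in edgeR), and both signs turn with library totals, to −0.18 and −0.15. Gsn, the gelsolin gene, had a log2 fold change of 0.31 (adjusted p = 0.396) and Cxcl12, a chemokine gene, of −0.58 (adjusted p = 0.226), in edgeR. Of these genes, Sgk1 was the only one called, and Ptn was among them too.

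The class held 3.11% of all windows, and the counts from the pathway lists are read against that share. It held 1 of 32 immediate early and AP-1 genes (Sgk1), 1 of 29 p53 targets (Gdf15), 1 of 35 fibroblast matrix genes (Timp3), 2 of 32 TGF-beta, BMP and SMAD genes (Tgfb1 and Grem1) and 3 of 33 receptor and growth factor genes of fibroblasts (Fgfr2, Cxcl12 and Notch1). It held none of 30 actin and SRF, 19 YAP and TEAD, 43 ribosomal protein and 30 mitotic genes, and 1 of 17 neuronal markers (Nefm). Gdf15, a stress-induced cytokine gene, gained promoter H3K27ac, from 34 to 95 reads, and its RNA was not tested here. RNA of Tgfb1 was higher (log2 fold change 1.29 ± 0.39 SE, adjusted p = 0.0240 in edgeR) at 1.5 and 3.69 CPM, with 215 and 254 H3K27ac reads, and that of the FGF receptor gene Fgfr2 was lower (−0.62 ± 0.18, adjusted p = 0.0207 in edgeR) at 112 and 73.1 CPM, with 79 and 42 reads. Tgfb1 did not pass without irradiated replicate 1 or untreated replicate 2 (adjusted p = 0.0823 and 0.0588 in edgeR), nor with library totals (0.0817). Fgfr2 did not pass without irradiated replicates 2 or 3 (adjusted p = 0.0554 and 0.238 in edgeR), nor with no filter on low counts (0.0855). Grem1, a BMP antagonist gene, had 66 and 14 H3K27ac reads and RNA at 3.94 and 2.90 CPM (adjusted p = 0.450 in edgeR). RNA of Notch1 (0.06) and Nefm (0.15) did not pass (adjusted p = 0.944 and 0.969 in edgeR).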

How the data were processed

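The authors deposited RNA counts per gene and library, pooled chromatin counts per peak and promoter window, and log2 enrichment values, per the file headers. Each deposited log2 enrichment was recomputed as log2((reads + 16)/(scale × input reads + 16)). The scale at peaks was 0.706 for both H3K27ac pools and 0.657 for both FAIRE pools. At promoter windows it was 0.706 untreated and 0.712 irradiated for H3K27ac, and 0.657 and 0.528 for FAIRE. The authors' deposited peak score served to rank peaks. The submitters' processing notes name mm9, MACS2, TopHat, DESeq2 and Bowtie 0.12.9, with no role or setting. Columns named DMSO were taken as irradiated, because the labels' protocol gives DMSO to irradiated cells. A further 8 columns of values were not used.

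Peak overlaps and gaps were computed in Python 3.11.15 (numpy 2.4.6, pandas 2.3.3, scipy 1.17.1), after tests on simulated intervals. The difference is irradiated minus untreated log2 enrichment; gains are differences of 1 or more and losses of −1 or less. Read ratios are scaled by pool depth (irradiated over untreated 1.01), with exact conditional binomial intervals of 95% that cover counting error only. RNA was tested in R 4.3.3 with edgeR 4.0.16 (filterByExpr, TMM, quasi-likelihood test, Benjamini-Hochberg adjustment over 14925 genes, threshold 0.05), tested on simulated data. CPM are TMM-scaled, errors of CPM are SD with n = 3, and a log2 fold change divided by the square root of F gives its SE. Alternatives were DESeq2 1.42.0, other scalings and filters, a replicate block, and leaving out each library.

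Peaks of at least 200 bp were named by rule: the 4 highest in untreated enrichment, the 4 nearest its median, and the 4 highest and 4 lowest in difference among the upper 50% by mean enrichment, 1 per 100 kb. The 3 smallest gaps and 3 smallest overlaps and the 5 runs with most untreated reads were also taken. Genes named are the 8 highest and 8 lowest called with a mean of at least 5 CPM and no overlap between groups, the 6 with most untreated CPM, and all genes of the lists that fell in the set; 1 gene picked by these rules is not reported here. The design had planned to tie peaks to genes. No mm9 gene coordinates were used here, so the promoter windows were classed by their own values instead, a choice made after seeing the data, and peaks were spaced by distance in place of nearest gene. The members, lists and tests were chosen with earlier results of these data known.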

Additional observations from a re-analysis of the deposited data

How the results depend on the processing

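Limits come first. Each chromatin value is 1 pool with no replicate error, and the median member rests on 22 reads per pool. The planned tie of peaks to genes (share of peaks in promoter windows, RNA of genes whose window holds a peak) was not run, for want of mm9 gene coordinates. The promoter windows, the classes by distance and the FAIRE values beside peaks were added after seeing the data. The cause of each shift below was not tested. Below, gains and losses are counts of peaks without FAIRE, "near" is within 500 bp of a FAIRE peak (main 1634 gains, 1860 losses) and "far" beyond 10 kb (1699, 705), and the level gap is the median untreated enrichment minus that of peaks with FAIRE (main −1.69). An overlap of 50% of the shorter peak gave 4164 near gains and 3882 near losses. The upper 50% of FAIRE peaks by score gave a level gap of −1.94, far 3639 and 2658, near 969 and 993. The upper 50% of H3K27ac peaks gave 12258 members, a level gap of −1.04, a median difference of 0.16, 2864 gains and 1603 losses, far 804 and 205, near 1044 and 844. Counting peaks within 500 bp as open gave −1.41, a median difference of 0.044 and 2803 losses. With 1 read added the level gap was −1.51, gains 11978, losses 10828, far 4292 and 2414, near 2904 and 3506. A threshold of 0.58 gave 11244 and 10565, far 3559 and 2038, near 3127 and 3751. Centring moved the median difference to −0.033, and the upper 50% by mean enrichment moved it to −0.020, with far 993 and 441. Each FAIRE pool's own input scale gave 0.072 and −0.79 beside gaining and losing peaks, against 0.00 and −0.87.

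For the promoter class, an H3K27ac minimum of 2 left 283 windows with 16 gains and 51 losses, and RNA of 17 higher and 30 lower. A FAIRE limit at the 90th percentile gave 18 and 35. Library totals alone gave 116 lower in the class and 3739 lower of all tested genes, and no filter gave 16 higher in the class. Without 1 library at a time, all tested genes gave 585 to 1941 higher and 1139 to 2849 lower, and the class 14 to 51 higher and 32 to 90 lower, and 4 uncalled named genes changed direction: Hnrnpf ranged from −0.06 to 0.24, Timp3 from −0.01 to 0.33, Notch1 from −0.16 to 0.22 and Nefm from −0.27 to 0.62. With library totals Hnrnpf was −0.18, Timp3 −0.15, Notch1 −0.20 and Nefm −0.04. Deviations of same-numbered libraries from their group means had r = 0.15, −0.58 and 0.50. With 3 libraries per group such values are tied to each other, so they do not settle whether the numbers pair the libraries. With the replicate block 1276 genes were higher and 2067 lower, in the class 37 and 63, and Nefm was −0.09.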
